A study of Homo sapiens with 2 samples.

Results

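Collagen transcripts were abundant in doxorubicin-resistant SUM159 cells, and their levels differed widely among chains. COL5A1, COL6A3, COL12A1, COL6A2, COL6A1, COL8A1, COL16A1, COL7A1, COL1A1 and COL4A6, in falling order, were among the 1000 symbols of highest mean CPM, whereas COL1A2, the gene of the α2 chain of type I, had 3.65 and 2.95 CPM (counts per 1e+06 counts of the library) in replicates 1 and 2. The gene set holds every symbol of the count files made of COL, a number, A and a number, which gave 43 of 23368 symbols. Of these, 22 averaged 20 counts or more, the minimum that the methods of the study use and here the meaning of expressed, 12 had a few counts and 9 had none in either library. By library, 9 and 11 of the 43 had no count in replicates 1 and 2. Over all 23368 symbols, 16171 and 15770 had a count, so collagen genes were not detected less often than symbols in general.

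SUM159 is a triple-negative breast cancer cell line of mesenchymal character. The cells carried no engineered genotype (labelled Wt), grew attached as a monolayer in Ham's medium with serum, insulin and hydrocortisone, and had become resistant to doxorubicin, which traps topoisomerase II on DNA, through prolonged treatment with rising doses. According to the methods, exposure of 2 days was followed by recovery without the drug. Polyadenylated RNA of 2 libraries, replicates 1 and 2 of this 1 group, was read as single ends of 100 bp. The sources do not state whether the replicates were separate cultures or whether the resistant line is a clone or a pool. Treatment-naïve cells were not analysed here, so levels in resistant cells are given and no change upon resistance.

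Collagens are secreted or membrane-bound proteins whose chains wind around each other in threes, and each chain carries long repeats in which glycine returns at a fixed spacing. Fibrillar collagens form the tensile fibers of connective tissue, and network-forming type IV collagens line basement membranes. FACITs, the fibril-associated collagens with interrupted triple helices, sit on the surface of fibers, and transmembrane collagens act as adhesion molecules. In carcinomas most fibrillar collagen is laid down by stromal fibroblasts, and carcinoma cells that have gone through an epithelial-to-mesenchymal transition can make it as well. The study reads COL1A1 and COL3A1 as mesenchymal markers.

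The repeat is visible in the exons of the genes themselves. Its part in their length and base composition was not tested. In the canonical GENCODE transcripts of the 43 genes on GRCh37, 1905 internal exons were coding throughout. Of these, 64.2% had a length that is a multiple of 9 bases, against 13.6% of 156689 such exons in all other protein-coding genes. An exon of exactly 54 bases made up 24.9% of the former and 0.450% of the latter. The fibrillar genes carried most of them, with 21 of 49 exons in COL1A1 and 24 of 50 in COL1A2, while COL4A1 had 2 of 50. COL8A1, COL8A2 and COL10A1 have no internal exon that is coding throughout. For the partner genes whose levels are set side by side further on, the 54-base exon nearest the 5′ end in which a glycine codon opens each run of 9 bases is shown, with these GGN codons in capitals. They are exon 8 of COL1A1 (chr17:48275310-48275363, minus strand), exon 8 of COL1A2 (chr7:94034005-94034058, plus strand), exon 15 of COL5A1 (chr9:137645696-137645749, plus strand) and exon 6 of COL5A2 (chr2:189962003-189962056, minus strand).
COL1A1 exon 8: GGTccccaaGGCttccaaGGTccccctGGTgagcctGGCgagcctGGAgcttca
COL1A2 exon 8: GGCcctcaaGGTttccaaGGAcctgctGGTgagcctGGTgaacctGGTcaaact
COL5A1 exon 15: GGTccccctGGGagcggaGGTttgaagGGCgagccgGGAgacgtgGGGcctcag
COL5A2 exon 6: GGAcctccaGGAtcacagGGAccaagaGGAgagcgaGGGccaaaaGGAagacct
Each holds 6 such codons, and their GC content runs from 57.4% in COL1A2 to 72.2% in COL5A1. The 22 expressed collagen genes had a median transcript GC content of 57.6%, against 48.4% over the 11786 genes that were tested between the libraries and have a length.

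The libraries hold 23044084 and 17985508 counts inside genes, so that 1 count is 0.0434 and 0.0556 CPM, and a count of 0 allows up to 0.130 and 0.167 CPM, taking 3 counts as the limit. Such limits cover counting error only, because the reads carry no molecular identifiers and may be copies of one another. Markers of both kinds were present. All 6 mesenchymal markers listed were expressed, with VIM at 8159 and 6925 CPM in replicates 1 and 2, while the epithelial adhesion genes EPCAM and CDH1 had 6 and 6 and 9 and 13 counts. The other epithelial markers were not all low, since 6 of 9 were expressed, among them ITGA6 with 309 and 433 CPM, KRT18 with 409 and 282, KRT8 with 308 and 223, and TP73 with 28.0 and 17.0. Lists of other cell types summed to 17.7 and 9.73 CPM for 6 leukocyte genes, 1.08 and 1.11 CPM for 4 endothelial genes, and 15.8 and 17.1 CPM for 4 cartilage genes. CD3E, VWF and KDR had no counts, ACAN had 1 and 0, and most of the leukocyte sum was CD14 with 356 and 137 counts. PTPRC, also a leukocyte gene, had 48 and 31 counts. Most of the cartilage sum was SOX9 with 327 and 294 counts, and most of the endothelial sum was PECAM1 with 24 and 20.

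All collagen genes together took 0.496% of the counts in replicate 1 and 0.747% in replicate 2, or 4964 and 7467 CPM. Replicate 2 was the higher, by 0.59 on the log2 scale. The division among the classes was similar in the libraries, apart from the small transmembrane class, which took 1.39% and 0.741%. Fibrillar collagens made 29.0 ± 0.936% of collagen CPM (SD, n = 2), basement membrane collagens 12.2 ± 0.456%, FACITs 15.9 ± 0.749% and transmembrane collagens 1.07 ± 0.458%. The remaining group, which holds types VI, VII, VIII, X, XV, XVIII and XXVIII, was the largest with 41.8 ± 0.771%. Per kb of exon, which takes out gene length, this group held 49.4% and 47.3% and the fibrillar class 27.8% and 30.6% in replicates 1 and 2.

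**Figure D1:**
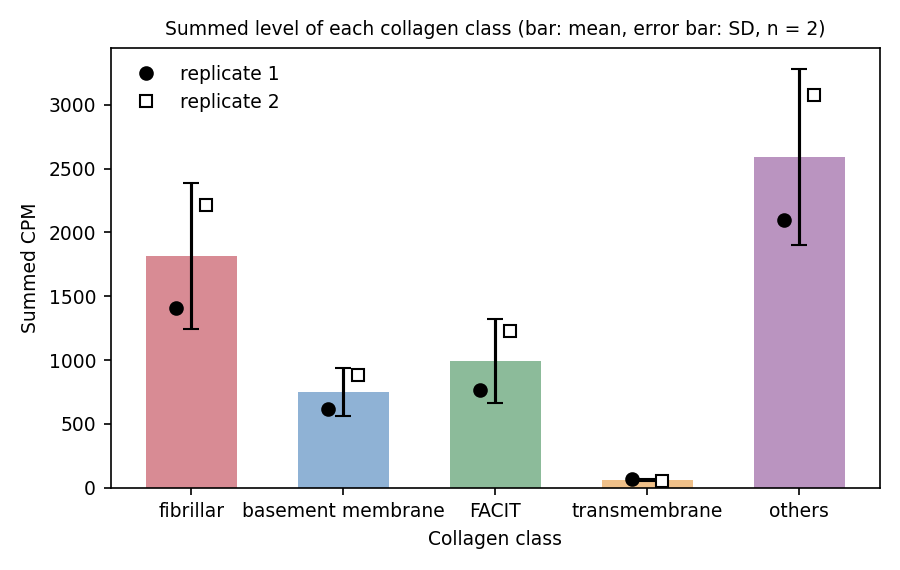
Summed CPM of the 5 collagen classes. Bars are means with SD of the 2 libraries, filled circles replicate 1 and open squares replicate 2, and the summed level is higher in replicate 2 in each class except the transmembrane collagens, at 69.0 and 55.3 CPM.

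COL5A1, which encodes the α1 chain of the type V collagen found inside type I fibers and involved in starting them, had the highest CPM of the set. The gene spans 137533649 to 137736689 of chromosome 9 on GRCh37. Its counts were 18310 and 23179, which is 795 and 1289 CPM, and it ranked 78 among all symbols by mean CPM. In all, 10 collagen genes were among the 1000 symbols of highest mean CPM. Per kb of exon the order was different. COL6A2 led with a mean of 104 CPM per kb, ahead of COL5A1 with 93.3 and COL6A1 with 79.6, and the same 3 genes led in that order per kb of the longest coding transcript, with 161, 123 and 105. Among all expressed genes, COL6A2 lay at percentile 97.1 of the per-kb level and COL1A2, the lowest collagen of that size, at percentile 3.53.

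**Figure D2:**
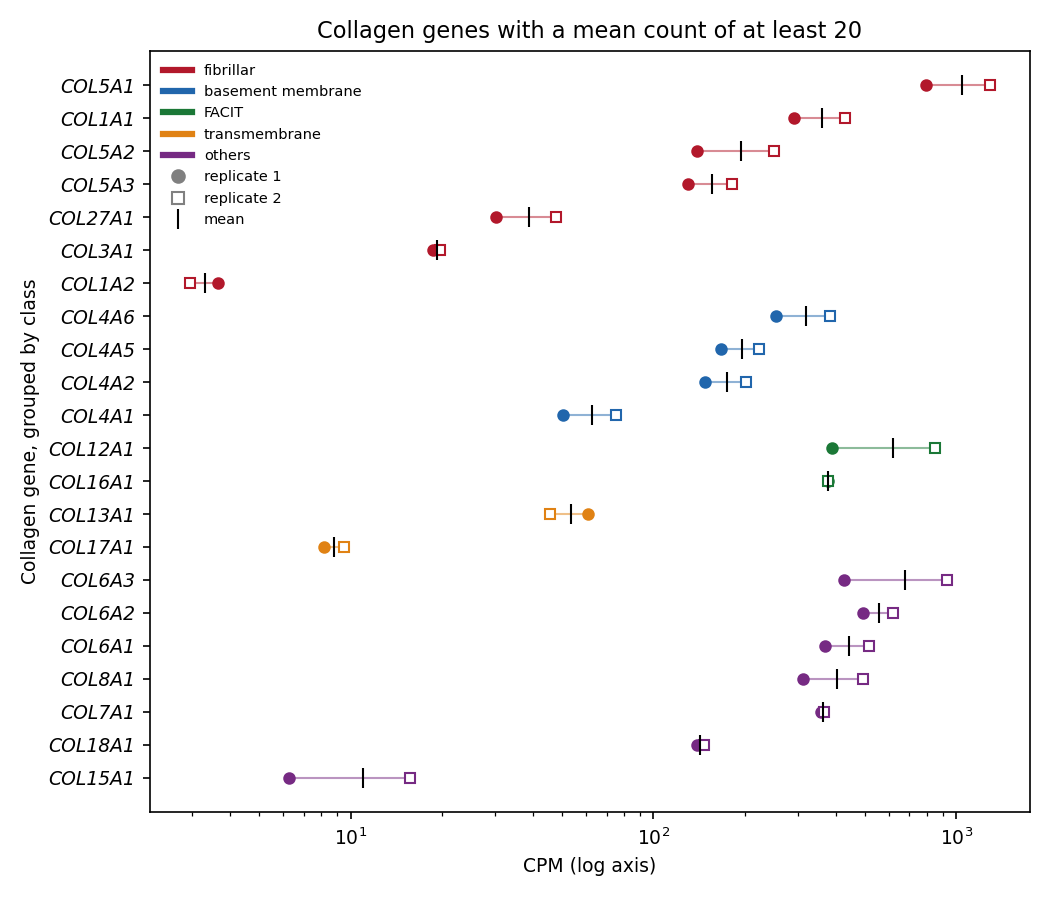
CPM on a log axis of the 22 expressed collagen genes, grouped by class. Filled circles are replicate 1, open squares replicate 2 and vertical marks the mean, from COL1A2 at 3.30 CPM to COL5A1 at 1042 CPM.

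In the fibrillar class, 7 of 11 genes were expressed. The other chains of type V were also well expressed. COL5A2, on chromosome 2 from 189896624 to 190090038, had 139 and 249 CPM, and COL5A3, on chromosome 19 from 10070237 to 10121180, had 130 and 181 CPM. In each of the 3 type V genes replicate 2 was the higher. COL1A1, on chromosome 17 from 48261462 to 48278993, had 292 and 428 CPM. COL27A1, a fibrillar collagen known from cartilage, had 30.2 and 47.5 CPM. The mesenchymal marker COL3A1, whose type III chains form fibers in vessels and skin, was much lower. It spans 189839099 to 189877472 of chromosome 2, and its 432 and 356 counts gave 19.3 ± 0.740 CPM (SD, n = 2). Its libraries differed less than those of the type V genes. In bulk RNA, fewer cells with a transcript and less of it per cell cannot be told apart.

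Type I collagen, the main protein of bone, tendon and skin, is usually assembled from chains of COL1A1 and COL1A2. Here their genes were far apart. COL1A2 (chromosome 7, 94024207 to 94060539) reached 84 and 53 counts, or 3.65 and 2.95 CPM, where COL1A1 had 6727 and 7701 counts. Per kb of exon, COL1A1 was 96.1 times as high in replicate 1 (95% exact binomial interval 77.5 to 121) and 174 times in replicate 2 (133 to 233). The intervals of the libraries do not overlap, although both ratios are large, and between the libraries COL1A1 was called higher in replicate 2 while COL1A2 was not called (log2 ratio -0.30, adjusted p = 0.312 in edgeR). Per kb of the longest coding transcript the ratios were 68.7 and 125. The exons 8 printed above, of the same length and with the same number of glycine codons, belong to this pair.

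A similar gap separated the chains of type VIII collagen, a short-chain network collagen of vessel walls and the cornea. COL8A1 (chromosome 3, 99357319 to 99518070) reached 7200 and 8847 counts, or 312 and 492 CPM, while COL8A2 had 7 and 3 counts. The per-kb ratio was 510 in replicate 1 (interval 248 to 1270) and 1464 in replicate 2 (501 to 7098), and these wide intervals overlap. Type VI and type V chains lay much closer together. COL5A1 was 3.74 and 3.39 times as high as COL5A2 per kb of exon, and COL6A1 was 0.719 and 0.801 times COL6A2. Of the 6 pairs compared, those of types I and VIII were the only pairs in which a chain was under 0.1 of its partner in both libraries.

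**Figure D3:**
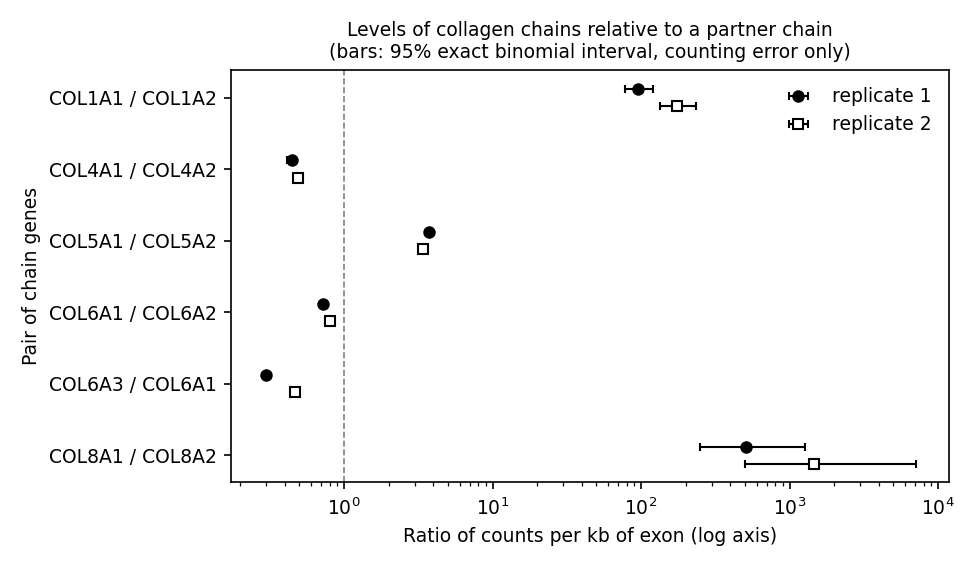
Ratio of counts per kb of exon between partner chains, on a log axis, with 95% exact binomial intervals that cover counting error only. Filled circles are replicate 1 and open squares replicate 2, the dashed line marks equal levels, and COL1A1 to COL1A2 (96.1 and 174) and COL8A1 to COL8A2 (510 and 1464) lie far to its right.

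The 6 type IV genes form 3 pairs that stand head to head, each pair transcribed outward from a common stretch, and the pairs were at different levels. On chromosome X, COL4A5 (107683068 to 107940775) and COL4A6 (107398837 to 107682727), whose chains build the network of smooth muscle and some epithelial basement membranes, were the highest. On chromosome 13, COL4A1 (110801310 to 110959504) and COL4A2 (110958159 to 111165556), the chains of nearly all basement membranes, were lower. On chromosome 2, COL4A3 and COL4A4, best known from the filtration barrier of the kidney, were below a mean of 20 counts. Of this pair only COL4A3 was under the limit of 3 counts. The bases between the annotated start sites are shown as the plus strand because each pair shares them, trimmed to bases in no annotated exon and to at most 250 next to the plus-strand gene. Capitals mark the letters GGGCGG and CCAAT on either strand (CCGCCC and ATTGG when read on the other), and TATAAA was also searched.
COL4A6/COL4A5 (chrX:107682818-107683067): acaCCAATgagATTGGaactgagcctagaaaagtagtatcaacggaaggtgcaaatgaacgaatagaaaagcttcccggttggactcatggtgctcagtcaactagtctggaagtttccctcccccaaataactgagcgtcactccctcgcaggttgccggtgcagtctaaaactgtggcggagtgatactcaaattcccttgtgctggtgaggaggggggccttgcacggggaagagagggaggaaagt
COL4A1/COL4A2 (chr13:110959505-110959604): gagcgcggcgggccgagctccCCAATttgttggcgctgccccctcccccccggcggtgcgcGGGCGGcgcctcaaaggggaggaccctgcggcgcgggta
COL4A4/COL4A3 (chr2:228029170-228029339): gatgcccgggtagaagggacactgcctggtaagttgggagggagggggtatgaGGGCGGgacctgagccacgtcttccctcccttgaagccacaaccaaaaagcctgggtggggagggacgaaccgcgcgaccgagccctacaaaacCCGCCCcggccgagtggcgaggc
Between the outermost start of the minus-strand gene and the start of the canonical transcript of the plus-strand gene lie 340, 126 and 170 bases in this order. Other annotated COL4A2 transcripts start further upstream, so the full spans of COL4A1 and COL4A2 given above overlap. The start of COL4A2 used is 110959631. The stretches shown have 51.2%, 78.0% and 65.9% GC. The X-linked stretch holds 2 CCAAT matches and no GGGCGG, that of COL4A1 and COL4A2 holds 1 of each, and that of COL4A3 and COL4A4 holds 2 GGGCGG and no CCAAT. None holds TATAAA. Over the same number of bases before 35116 RefSeq starts (GRCh38.p14), CCAAT occurs in 32.0%, 18.1% and 25.4%, GGGCGG in 42.6%, 31.3% and 38.3%, and TATAAA in 10.7%, 4.99% and 7.44%. A match describes letters and not a bound site.

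COL4A6 had 5853 and 6883 counts, or 254 and 383 CPM, and COL4A5 had 167 and 224 CPM. COL4A2 had 148 and 202 CPM and COL4A1 50.1 and 75.2 CPM. Each of these 4 genes was higher in replicate 2. Within a pair the chains were not equal. Per kb of exon COL4A1 was 0.444 and 0.489 times COL4A2, and COL4A5 was 0.515 and 0.457 times COL4A6, the latter pair having been chosen after its values were seen. Across pairs, also chosen after the values were seen, COL4A6 was 8.01 and 8.04 times as high as COL4A1 per kb of exon and 4.91 and 4.93 times per kb of the longest coding transcript, so that this ratio was the same in both libraries within its interval (7.52 to 8.54 and 7.58 to 8.52 per kb of exon). COL4A3 had 1 and 2 counts and COL4A4 had 13 and 16.

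Of the 10 FACIT genes, 2 were expressed and they took nearly all counts of the class. COL12A1, whose product bridges fibers and the surrounding matrix, spans 75794042 to 75915983 of chromosome 6. It reached 8919 and 15333 counts, or 387 and 853 CPM. Replicate 2 was 2.20 times as high. COL16A1, on chromosome 1 from 32117864 to 32169920, codes for a collagen that associates with small fibers and microfibrils, and it had 376 CPM in each library. By CPM, COL12A1 and COL16A1 were thus close in replicate 1 and apart in replicate 2. Per kb of exon it was the other way around. COL12A1 had 20.5 and 45.2 CPM per kb in replicates 1 and 2, and COL16A1 had 40.6 in each. Below them, COL9A3 had 17 and 13 counts, COL14A1 10 and 2, and COL9A2 5 and 0, while COL9A1, COL19A1, COL20A1, COL21A1 and COL22A1 had none.

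Transmembrane collagens were the smallest class. COL13A1, found at cell-matrix adhesions and neuromuscular junctions, had 1400 and 822 counts, or 60.8 and 45.7 CPM, on chromosome 10 from 71561636 to 71724031. It was the sole collagen called higher in replicate 1. COL17A1, the hemidesmosomal collagen of basal epithelial cells, reached 188 and 171 counts, which gave 8.83 ± 0.954 CPM (SD, n = 2). COL23A1 had 1 and 2 counts and COL25A1 none.

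Type VI collagen, which forms beaded filaments close to cells, supplied the 3 highest genes of the remaining group by CPM. COL6A3, the longest of them, spans 238232646 to 238322971 of chromosome 2 and reached 426 and 929 CPM. COL6A2 and COL6A1 lie next to each other on chromosome 21, from 47518026 to 47552762 and from 47401684 to 47424964, and had 493 and 617 CPM and 368 and 513 CPM. All 3 were higher in replicate 2, COL6A3 by the largest step. Per kb of exon COL6A3 was 0.298 times COL6A1 in replicate 1 and 0.466 times in replicate 2, and the intervals of these ratios (0.289 to 0.307 and 0.454 to 0.478) do not overlap. These intervals leave out the length trend over all genes, given further on. That trend expects a log2 ratio of replicate 2 over replicate 1 of 0.51 for COL6A3 and 0.037 for COL6A1. Relative to it the 2 genes were at 0.61 and 0.44. COL6A5 and COL6A6, related to COL6A3, had 0 and 0 and 1 and 2 counts. Per kb of exon COL8A1 and COL7A1, with means of 42.7 and 32.5 CPM per kb, were above COL6A3 with 31.5.

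COL7A1 encodes the anchoring fibril collagen that ties epithelium to the dermis, and it has 119 exons in its canonical transcript. The gene spans 48601506 to 48632762 of chromosome 3, and its 8243 and 6568 counts gave 361 ± 5.29 CPM (SD, n = 2). The multiplexins, collagens of the basement membrane zone that carry glycosaminoglycan chains, were lower and unlike each other. COL18A1, the source of the fragment endostatin, had 143 ± 5.46 CPM (SD, n = 2), and COL15A1 had 144 and 282 counts, or 6.25 and 15.7 CPM. Of the exonic bases of COL18A1, 18.5% overlap SLC19A1 on the opposite strand, which had 1499 and 1230 counts, and without a stated strand setting reads in the overlap cannot be assigned. COL10A1, a marker of hypertrophic cartilage, had no counts, and COL28A1 had 4 in each library.

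Several other collagens known from cartilage had few or no counts. COL2A1, the main fibrillar collagen of that tissue, had none in either library, like COL9A1. COL11A1 had 2 and 3 counts and COL11A2 1 and 0. COL24A1, a fibrillar collagen of bone, had 2 and 2. COL11A2 lies near the major histocompatibility complex on chromosome 6, from 33130458 to 33160276. Of 52 protein-coding genes within 1 Mb of it, 28.8% were expressed, against 61.0% of 729 on the parts of the chromosome away from it and from DDR1, and the part of this in the low counts of COL11A2 was not tested.

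Most expressed collagen genes had a higher CPM in replicate 2. Over all 13744 symbols with at least 10 counts in the libraries together, each was compared between the libraries with the exact binomial test of edgeR, two-sided with Benjamini-Hochberg adjustment. This compares the libraries and not conditions, and it covers counting error only. Of the 43 collagen genes, 26 could be tested. At an adjusted p under 0.05, 15 were higher in replicate 2, where 30.1% of all symbols were, and 1 was higher in replicate 1, where 27.6% of all symbols were. The median log2 ratio of replicate 2 over replicate 1 was 0.46 over the 26 genes and -0.012 over all symbols tested.

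The differences were unequal among members. The largest of the well-counted genes were those of COL12A1 and COL6A3, with log2 ratios of 1.14 and 1.13, and COL15A1 had 1.32 at far fewer counts (adjusted p = 1.27e-19 in edgeR). COL5A2 followed with 0.84 and COL5A1 with 0.70. COL7A1 (0.030, adjusted p = 0.294 in edgeR), COL18A1 (0.078, adjusted p = 0.0683) and COL3A1 (0.079, adjusted p = 0.548) were not called, and COL16A1 was at -0.00080. COL13A1 had a log2 ratio of -0.41 (adjusted p = 2.96e-10 in edgeR). All expressed chains of types V and VI and the 4 expressed chains of type IV were thus higher in replicate 2, whereas COL1A2 and types III, VII, XVI, XVII and XVIII were not called.

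Gene length moved with the differences over all genes. Across 11786 genes with a length, Spearman's rho between the log2 ratio and exonic length was 0.52. It was 0.62 with the length of the longest coding transcript and -0.29 with transcript GC content. These values are descriptions, because genes of the same libraries are not independent. Over the 22 expressed collagen genes rho was 0.16 with exonic length, 0.52 with the length of the longest coding transcript and -0.46 with GC content. Collagen genes are long, with a median of 9345 exonic bases in the 22 expressed genes, against 5430.5 in the genes tested. Their median lay above that of all genes in the 3 upper ranges of length and below it in the lowest range that holds any, from 3500 to 5000 bases, with -0.38 over 2 genes of few counts (COL8A2 and COL9A3) and -0.076 over 2218 genes. From 5000 to 7000 bases the median log2 ratio was 0.40 over 6 collagen genes and 0.059 over 2486 genes, from 7000 to 10000 it was 0.57 over 6 and 0.20 over 2011, and above 10000 it was 0.52 over 12 and 0.40 over 1994.

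**Figure D4:**
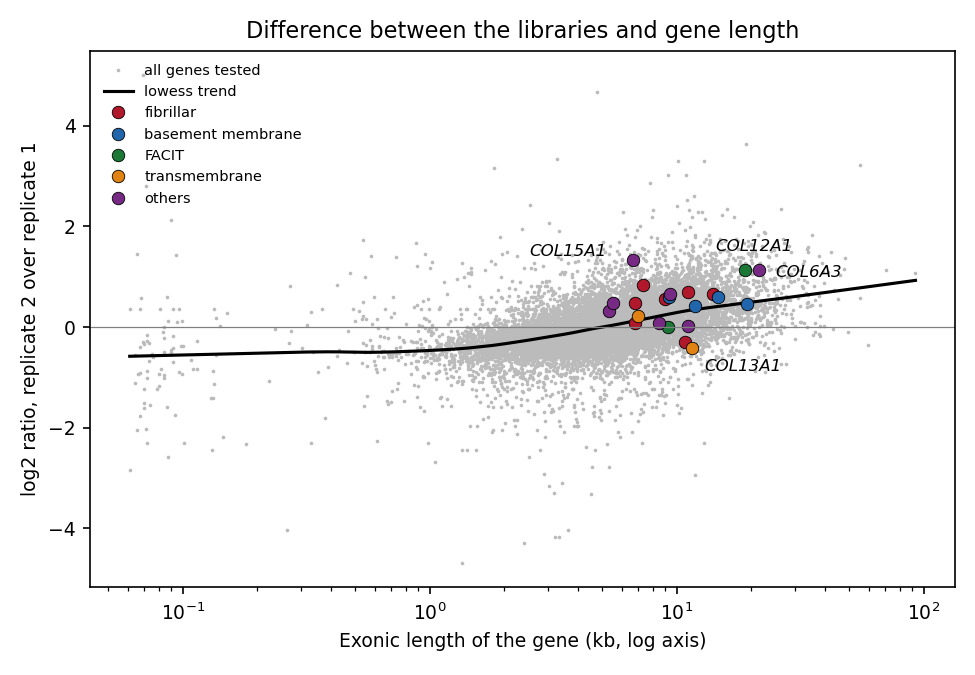
Log2 ratio of replicate 2 over replicate 1 against exonic length in kb on a log axis. Grey points are the 11786 genes tested with a length, the line is their lowess trend, and colored points are the 22 expressed collagen genes, of which COL15A1, COL5A2, COL12A1 and COL6A3 lie farthest above the line (1.21, 0.69, 0.66 and 0.61) and COL13A1 and COL1A2 farthest below it (-0.75 and -0.62).

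When the ratio expected of each gene was read from this trend, 13 collagen genes were higher in replicate 2 and 5 in replicate 1, beside 26.8% and 26.1% of all genes so tested, and the median log2 ratio was 0.22. COL4A2 and COL4A5 lost their calls, with -0.034 and 0.072. COL4A2 was called higher in replicate 2 again with the length and GC trends (0.089, adjusted p = 0.0209 in the exact binomial test of base R). The longest-transcript trend called it as well (0.093, adjusted p = 0.0172 in the same test), whereas COL4A5 was called with neither. COL7A1 (-0.30), COL16A1 (-0.26), COL18A1 (-0.14) and COL1A2 (-0.62) were called higher in replicate 1 relative to the trend, together with COL13A1 (-0.75). The call of COL1A2 (adjusted p = 0.0268 in the exact binomial test of base R) was lost with a trend on the longest coding transcript (adjusted p = 0.0783). COL15A1 was at 1.21, COL5A2 at 0.69, COL12A1 at 0.66 and COL6A3 at 0.61. With a trend on the longest coding transcript, chosen after the data were seen, the calls were 14 and 5, beside 25.0% and 22.7%. These 5 held COL14A1 in place of COL1A2. COL14A1 had only 10 and 2 counts (-2.19, adjusted p = 0.0393 in the exact binomial test of base R). The median log2 ratio of the 26 genes was then 0.14. Taking off a GC trend together with that on exonic length left 14 and 4 calls, beside 26.4% and 25.3%, with a median of 0.24. COL18A1 was then at 0.0055 and not called. Among other lists that moved between the libraries, the 6 mesenchymal markers summed to 8510 and 7390 CPM, nearly all of it VIM, although 4 of them were called higher in replicate 2 and 2 in replicate 1. The 9 epithelial markers summed to 1078 and 970 CPM, with 1 called higher in replicate 2 and 4 in replicate 1 of 8 tested. The calls of both marker lists were made against library totals, where 30.1% and 27.6% of all symbols were called. The part of these lists in the collagen differences was not tested.

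**Figure D5:**
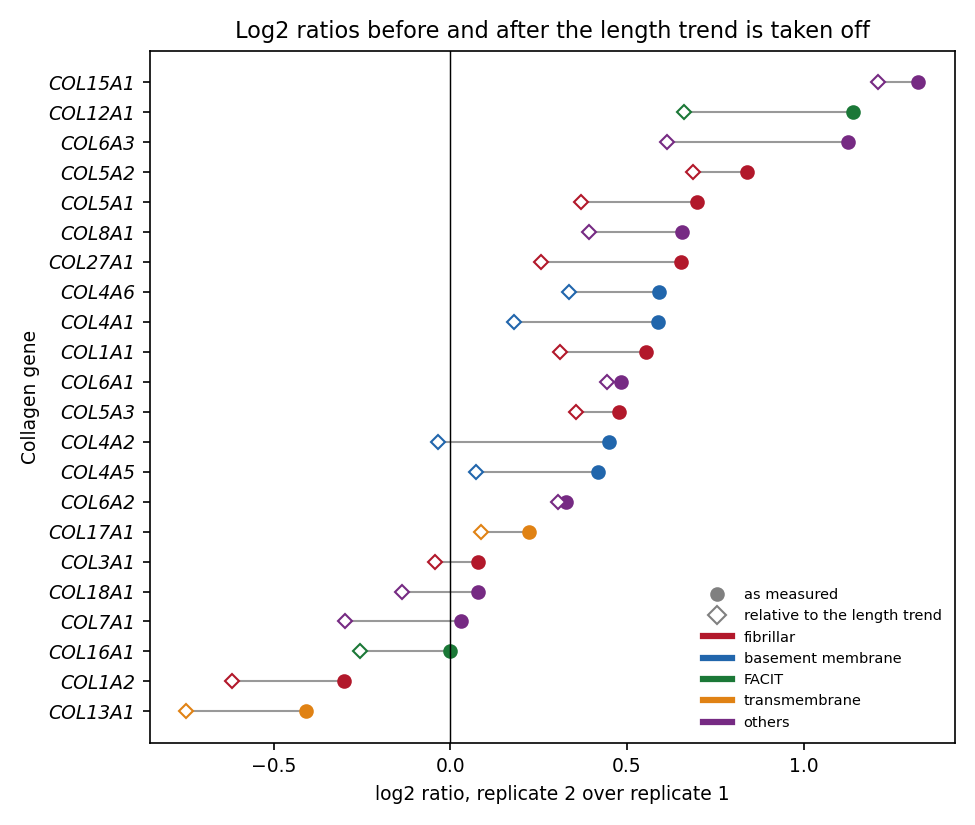
Log2 ratio of replicate 2 over replicate 1 for the 22 expressed collagen genes, as measured (filled circles) and relative to the length trend (open diamonds), colored by class. Every gene moves to the left, COL12A1 from 1.14 to 0.66, and COL7A1, COL18A1, COL3A1 and COL4A2 cross 0.

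The machinery that folds and modifies procollagen inside the cell was expressed nearly in full. Of 19 genes listed, 18 were expressed. The highest were P4HB, a subunit of the prolyl hydroxylase that stabilizes the helix, with 856 and 808 CPM, the prolyl isomerase FKBP10 with 666 and 569 CPM, and the cyclophilin PPIB with 489 and 345 CPM. The lowest was COLGALT2, a galactosyltransferase of hydroxylysine listed as GLT25D2, with 3 and 1 counts. Of 18 tested, 8 were higher in replicate 1 and 2 in replicate 2, beside 27.6% and 30.1% of all symbols. With the length trend these counts were 12 and 1, beside 26.1% and 26.8%. Their median log2 ratio was -0.062 at a median exonic length of 5622 bases. Summed over each list, collagen and folding genes had 4964 and 4369 CPM in replicate 1 and 7467 and 3983 CPM in replicate 2.

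Outside the cell, propeptides are cut off and fibers are cross-linked by lysyl oxidases. Of 13 such genes, 9 were expressed. LOXL2, a lysyl oxidase that acts on type IV collagen, was the highest with 521 and 668 CPM, followed by PCOLCE, which enhances removal of the C-propeptide, with 367 and 302 CPM, and by LOXL1 with 208 and 190 CPM. LOXL4 had no counts. Of 10 tested, 1 was higher in replicate 2 and 4 in replicate 1, beside 30.1% and 27.6% of all symbols. With the length trend the counts were the same, beside 26.8% and 26.1%, but not all of the genes were. LOXL1 lost its call, and ADAMTS2, at 16 and 4 counts, was called higher in replicate 1 instead.

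Among 10 collagen receptors, 6 were expressed, led by the integrin chain ITGB1 with 646 and 992 CPM, its collagen-binding partner ITGA2 with 259 and 311 CPM, and the endocytic receptor MRC2 with 150 CPM in each library. LAIR1, a receptor of leukocytes, had no counts. Of 8 tested, 4 were higher in replicate 2 and 0 in replicate 1, beside 30.1% and 27.6% of all symbols, with a median log2 ratio of 0.51 at a median exonic length of 9381 bases. With the length trend MRC2 was called higher in replicate 1 (-0.12, adjusted p = 0.00398 in the exact binomial test of base R), which made the counts 4 and 1. The discoidin receptors, chosen after their values were seen, were low, DDR2 with 10 and 11 counts and DDR1 with 4 and 2. DDR1 lies in the histocompatibility region, where 12.3% of 81 protein-coding neighbours within 1 Mb were expressed, and the part of this in its counts was not tested. Of 7 collagen-cleaving proteases, 4 were expressed. The gelatinase MMP2 had 437 and 385 CPM, the interstitial collagenase MMP1 8.25 and 3.61 CPM, and the membrane-type protease MMP14 3.21 and 2.89 CPM, while MMP8, MMP9 and MMP13 had no counts.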

How the data were processed

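For each of the 2 libraries the authors deposited 1 table of raw, whole-number counts by gene symbol. According to the methods and the submitters' processing notes, reads were checked with FastQC, mapped to hg19 with HISAT2 and counted inside genes with HTSeq, and deepTools is also listed. RNA was isolated with TRI reagent per the labels and with an RNeasy kit per the methods, and libraries were made with a kit that marks strand (NEBNext Ultra II Directional). The annotation, tool versions and strand setting of the counting are not given in the sources used here. Members and gene lists were chosen with earlier results of these data known. CPM were computed against the summed counts of each library. Coordinates, exonic lengths (the union of all annotated exons) and sequences come from GENCODE release 44 on GRCh37, the build of hg19, to which 19319 of 23368 symbols (82.7%) and all 43 collagen genes were matched. Log2 ratios have 0.5 counts added to each library. Because 1 group was held, the libraries were compared with the exact binomial test of edgeR 4.0.16, Benjamini-Hochberg adjusted over all 13744 symbols with at least 10 counts. Expected ratios from lowess trends (span 0.3) on length and GC, TMM and DESeq2 1.42.0 scaling, other filters, lengths and thresholds, and each library left out were alternatives. Tests against an expected ratio used the exact binomial test of base R, adjusted over the 11786 genes with a length. For 2 simulated libraries over 13754 genes without a length trend, 84.5% of 200 seeded 2-fold differences were called, and 0.0590% of other genes. With a simulated length trend, the same test called 53.0% of other genes over 13789 genes, and the test with the length trend 0.0602% over 11830. Simulated counts held counting error only and, where present, a trend set in advance, so the low shares of other genes called were built in. In the real libraries the test with the length trend called 26.8% of genes higher in replicate 2 and 26.1% higher in replicate 1. Members with a mean CPM of at least 1 are given by level and the others by counts, and of the other lists the 3 highest and the lowest are named. R 4.3.3 and Python 3.11.15 were used.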

Additional observations from a re-analysis of the deposited data

How the results depend on the processing

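With TMM and DESeq2 size factors, the counts of collagen genes called in each direction stayed within 1.5 times and the class sums within 1 SD. A difference of at least 1.5-fold, added to the adjusted p, left 9 of the 15 collagen genes higher in replicate 2 and 0 of the 1 higher in replicate 1. The share of all symbols at this threshold is not given here, so these counts have no background beside them. The number higher in replicate 1 rose to 5 with the length trend, to 4 with the length and GC trends, and to 5 with a trend on the longest coding transcript, an alternative chosen after the data were seen. Per kb of the longest coding transcript, the mean ratio was 0.350 for COL4A1 to COL4A2 in place of 0.467, 4.40 for COL5A1 to COL5A2 in place of 3.57, 0.647 for COL6A1 to COL6A2 in place of 0.760 and 0.592 for COL6A3 to COL6A1 in place of 0.382. These ratios change with the lengths alone, since the counts are the same. The log2 ratio turned negative with the length trend in COL3A1 (-0.043), COL4A2 (-0.034), COL7A1 (-0.30) and COL18A1 (-0.14), and with the length and GC trends in COL3A1 (-0.044) and COL7A1 (-0.16). That of COL16A1 turned positive with DESeq2 size factors (0.0069), and that of COL18A1 was then called (0.086). No paired analysis was possible because there is 1 group. With 1 library left out no test between libraries remains, and each library's value is given beside each level. Genes under about 3 counts are not separable from 0 at this depth.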

Other observations

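A collagen gene that the symbol pattern cannot match, COL26A1, is listed as EMID2 and had 1 and 0 counts. The pseudogenes COL6A4P1 and COL6A4P2 had 3 and 4 and 0 and 0 counts, and reads of such copies and of COL6A5 and COL6A6 may be shared, so these values are uncertain. The antisense gene COL18A1-AS1 had no counts in either library. COL9A3, at 17 and 13 counts, shares 3.20% of its exonic bases with TCFL5 on the opposite strand, which had 822 and 693 counts, so that the origin of its few counts is uncertain without a stated strand setting.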
